A study of Mus musculus with 4 samples.

Results

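Nr4a1, Nr4a2, Nr4a3, Egr1, Egr2 and Egr3 are 6 transcription factor genes that T cells switch on after their antigen receptor has been engaged. The 6 genes were taken by symbol from the 32285 genes of the RNA tables, all 6 were found, and each was followed in all 4 libraries. Levels were read in Cd4, Cd8 and Foxp3 T cells with high or low Ccl5, a chemokine gene of effector T cells, and compared between control tumors and tumors with knockdown of B7-H3.

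As background, receptor engagement raises calcium, which lets the NFAT factors enter the nucleus, and activates the ERK kinases, which act on serum response factor and its ETS partners. The EGR genes encode zinc finger factors induced within minutes to hours, mainly through the ERK branch, and the NR4A genes encode orphan nuclear receptors induced over a similar time with a strong calcium and NFAT input. Nr4a1 expression is widely read as a trace of recent receptor signaling. NR4A factors are known to restrain T cells under lasting antigen exposure and to support regulatory T cells, and Egr2 and Egr3 limit receptor signaling in anergic cells.

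The T cells came from subcutaneous tumors grown in young male wild-type C57BL/6J mice from 105K cells, a Tsc2-deficient line derived from a mouse renal tumor. Control tumors carried a non-targeting short hairpin (sh-NC, 2 libraries), and knockdown tumors carried 1 hairpin that targets Cd276 and so lowers the checkpoint protein B7-H3 (sh-B7-H3 (1), 2 libraries). The hairpins were in the tumor cells, so the host T cells were not altered themselves, and Cd276 in sorted T cells, at most 0.31 CPM in any class defined below, is no check of the knockdown. For each group 80 tumors were pooled, live CD3+ cells were sorted, stained with barcoded antibodies (CITE-seq) and, per the series' design text, loaded on duplicate lanes. The study's text also speaks of independent samples and of loading a single lane, so whether the 2 libraries of a group are lanes of 1 pool or separate pools is not settled here. The edgeR p-values and SEs below combine the spread between those libraries, which may be technical, with a dispersion fitted over all genes. They can thus be smaller than the spread of a single gene between libraries. The knockdown cannot be told apart from any other difference between the groups' tumors or handling.

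The 4 libraries held 7030 to 12112 called cells with 79224898 to 132820909 RNA UMIs, unique molecular identifiers that each mark 1 captured molecule. Of the called cells, 2931 to 5889 a library were kept after limits on detected genes, on mitochondrial UMIs and on doublets, with a median of 6464 to 8386 UMIs. Called barcodes shared by a pair of libraries numbered 17 to 35. A Cd4 cell had at least 1 Cd4 UMI, under 3 Cd8a and Cd8b1 UMIs and no Foxp3, a Cd8 cell at least 3 Cd8a and Cd8b1 UMIs without Cd4 or Foxp3, and a Foxp3 cell at least 1 Foxp3 UMI with under 3 Cd8a and Cd8b1 UMIs. Each class was split at 20 Ccl5 UMIs a cell. The classes held 119 to 2198 cells a library, except the Foxp3 cells with at least 20 Ccl5 UMIs, which numbered 12, 13, 21 and 25 and were given values without a test. The sums of lineage markers include the genes that define the classes and so are partly set by the rule: CD4 lineage markers summed to 308 to 752 CPM (counts per 1000000 RNA UMIs of that class and library) in Cd4 cells and 1.51 to 4.42 CPM in Cd8 cells, and regulatory T cell markers to 2484 to 3172 CPM in Foxp3 cells with low Ccl5 against 136 to 249 CPM in the matching Cd4 cells. All 6 T cell markers were present in every class. In the Cd4 cells with at least 20 Ccl5 UMIs, all 4 B cell and all 4 NK cell markers were at 0 in sh-NC, and they summed to at most 1.36 and 0.552 CPM in sh-B7-H3 (1). B cell markers reached 16.3 to 21.3 CPM in Ccl5-low Cd8 cells and 13.7 to 22.4 CPM in Ccl5-low Foxp3 cells, and the 12 myeloid markers ran from 60.4 to 418 CPM in Ccl5-high Cd8 cells of sh-NC. Tumor and stroma markers summed to 17.5 to 80.1 CPM over the 5 larger classes, and 3 gamma-delta T cell markers to 224 to 321 CPM in the Ccl5-high Cd4 and Cd8 cells against 6.78 to 23.9 CPM in the Ccl5-low ones. Cells with at least 20 Ccl5 UMIs were 2.02 and 2.51% of kept cells as Cd4 cells in sh-NC and 14.5 and 13.4% in sh-B7-H3 (1), and 5.52 and 7.71% against 24.1 and 22.7% as Cd8 cells.

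The 5 genes whose positions are printed here lie, in GRCm38 with GENCODE M21, at chr15:101254269-101274795 on the plus strand (Nr4a1), chr2:57106830-57124003 on the minus strand (Nr4a2), chr4:48045153-48086447 on the plus strand (Nr4a3), chr10:67535475-67542188 on the plus strand (Egr2) and chr14:70077203-70082614 on the plus strand (Egr3). No annotated gene overlapped any of the 6. Promoter windows, 250 bases before and 50 after a transcription start, were matched by symbol in RefSeq (GRCm38.p6) for 4 of the 6 genes, with 8 windows in all. The stretches below are shown because the same inputs that the background names, serum response factor for the EGR genes, NFAT, and the EGR factors themselves, have short motifs there; capitals mark the motif and each line reads 5′ to 3′ along the gene.
Egr2, CArG box, chr10:67537484-67537513, plus strand: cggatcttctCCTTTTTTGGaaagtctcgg
Egr2, CArG box, chr10:67537787-67537816, plus strand: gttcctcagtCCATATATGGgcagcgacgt
Nr4a1, EGR site on the opposite strand, chr15:101266775-101266804, plus strand: tgcgtcagtggCGCCCCCGCccctctccat
Nr4a2, EGR site, chr2:57124059-57124088, minus strand: gcgcggggtgcGCGCGGGCGgcgacaatga
Nr4a2, NFAT core on the opposite strand, chr2:57124217-57124246, minus strand: cggtgggtcattgTTTCCgcggccgctcct

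Both strands of each window were searched for the NR4A monomer site AAAGGTCA (NBRE), the EGR site GCGNGGGCG, the cyclic AMP response element TGACGTCA, the AP-1 site TGANTCA, the NFAT core GGAAA and the CArG box, the site of serum response factor. Over 32851 promoter windows of the same length, these letters were found in 1.51% (NBRE), 5.55% (EGR site), 1.79% (cyclic AMP response element), 7.81% (AP-1 site), 61.3% (NFAT core) and 1.63% (CArG box). The first Egr2 CArG box starts 72 bases before its start site and shares its last 2 bases with an NFAT core. The Nr4a1 and Nr4a2 EGR sites start 60 and 74 bases before theirs. None of these motifs was found in the Nr4a3 window, and an NFAT core is too frequent to set Nr4a2 or Egr2 apart. A match says only that the letters are there.

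Nr4a2, which encodes the nuclear receptor Nurr1, was higher in Ccl5-high than in Ccl5-low cells in both conventional lineages. In Cd4 cells with at least 20 Ccl5 UMIs it stood at 260.0 and 191.6 CPM in the sh-NC libraries and 261.4 and 225.1 CPM in the sh-B7-H3 (1) libraries (208, 165, 771 and 815 UMIs). Among Cd4 cells under 20 it stood at 2.83 and 1.26 CPM in sh-NC and 12.4 and 15.3 CPM in sh-B7-H3 (1). No library of the low class came near the high class. The log2 fold change, high against low with the library as a block, was 4.93 ± 0.36 (SE, edgeR quasi-likelihood test, adjusted p = 5.34e-07).

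The Cd8 lineage showed the same order at lower levels. Cd8 cells with at least 20 Ccl5 UMIs held 46.1 and 37.7 CPM of Nr4a2 in sh-NC and 83.6 and 73.6 CPM in sh-B7-H3 (1), against 1.26, 0.665, 6.09 and 5.20 CPM below 20. Again the ranges did not overlap, and the log2 fold change was 4.22 ± 0.24 (edgeR, adjusted p = 4.99e-08). Cd8 cells were lower than Cd4 cells in Nr4a2 both above 20 Ccl5 UMIs (log2 fold change −1.74 ± 0.11, edgeR adjusted p = 2.22e-10) and below (−1.06 ± 0.19, adjusted p = 3.63e-04). The difference below 20 UMIs had an adjusted p of 0.296 without the library block and log2 fold changes under a halving of −0.89 without sh-B7-H3 (1) replicate 2 and −0.84 with the low class limited to under 5 Ccl5 UMIs, an alternative added after seeing the data.

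Foxp3 cells with low Ccl5 held 4.07 and 4.72 CPM of Nr4a2 in sh-NC and 9.13 and 12.1 CPM in sh-B7-H3 (1), which overlapped the matching Cd4 cells. Among the few Foxp3 cells with high Ccl5 it stood at 11.8, 69.3, 135.6 and 225.1 CPM, which rest on 1, 6, 19 and 36 UMIs. In the last of these libraries 31 of the 36 UMIs lay in 4 cells with at least 80 Ccl5 UMIs. The 12 myeloid markers summed to 69.3 to 82.4 CPM in this class in sh-NC and 107 to 2414 CPM in sh-B7-H3 (1). Gamma-delta T cell markers were at 0 CPM in sh-NC and 144 to 164 CPM in sh-B7-H3 (1). Regulatory T cell markers summed to 3767 to 4098 and 2533 to 2745 CPM. The part of these other cell markers in the Nr4a2 values of the class was not tested. By the mean over 4 libraries, Nr4a2 ranked Cd4 high (235 ± 33.2 CPM, SD), Foxp3 high (110 ± 91.7), Cd8 high (60.2 ± 21.9), Cd4 low (7.94 ± 6.94), Foxp3 low (7.50 ± 3.79) and Cd8 low (3.30 ± 2.74). The ranges of Foxp3 high overlapped those of both neighbors, and the 3 low classes overlapped one another. The order differed in sh-NC alone, where Cd8 high (41.9 ± 5.94 CPM, n = 2) and Foxp3 high (40.6 ± 40.7) had nearly the same mean and Foxp3 low (4.40 ± 0.46) stood above Cd4 low (2.05 ± 1.11).

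**Figure D1:**
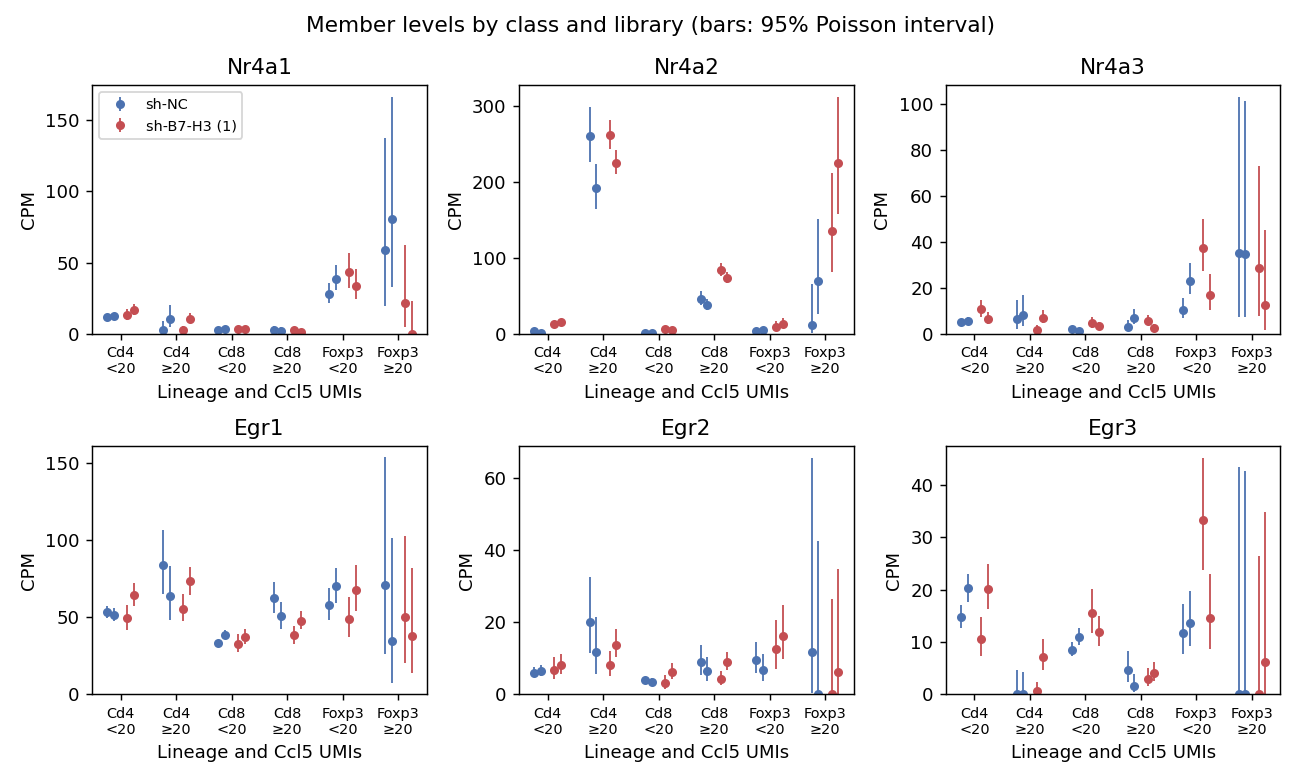
Level of each member (CPM of the RNA UMIs of the class, linear axis from 0) in 6 classes, with 1 point per library (blue sh-NC, red sh-B7-H3 (1)) and bars for 95% Poisson intervals, which cover counting error only. Nr4a2 lies between 192 and 261 CPM in Cd4 cells with at least 20 Ccl5 UMIs and at or under 15.3 CPM in every class below 20, while Nr4a1 is highest in Foxp3 cells.

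Nearly all Nr4a2 RNA of the classes lay in their Ccl5-high cells. Over the 6 classes together, these cells held 81.7 and 88.6% of Nr4a2 UMIs in the sh-NC libraries and 94.1 and 91.7% in the sh-B7-H3 (1) libraries. They were 10.0 and 13.3% of the cells in sh-NC and 51.9 and 49.2% in sh-B7-H3 (1). Egr1 UMIs followed the cells instead, with 12.9, 12.4, 50.4 and 47.7% in the high cells. Nr4a1 and Egr3 were below the share of cells, at 4.81, 7.24, 18.0 and 25.3% (Nr4a1) and 2.74, 0.911, 10.3 and 21.8% (Egr3). Egr2 UMIs lay at 17.6, 15.9, 47.3 and 52.1% and Nr4a3 UMIs at 10.5, 17.5, 26.4 and 36.9%.

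Bins of Ccl5 UMIs, added after the data had been seen, show where Nr4a2 rises. Cd4 cells with 0 Ccl5 UMIs held 0.723, 1.09, 0 and 4.25 CPM in the sh-NC and sh-B7-H3 (1) libraries in order, and cells with 1 to 4 UMIs held 11.2, 2.19, 9.48 and 4.11 CPM. At 5 to 9 UMIs sh-B7-H3 (1) replicate 2 held 134 CPM in 35 cells, and the other 3 libraries held no Nr4a2 UMI in 3, 6 and 9 cells. At 10 to 19 UMIs, just under the split, the sh-B7-H3 (1) libraries held 165 and 155 CPM in 21 and 25 cells, whereas the sh-NC libraries had only 7 and 1 such cells, with 10 and 0 Nr4a2 UMIs. At 20 to 39 UMIs, just over it, they held 367 and 266 CPM in 56 and 72 cells. Above 80 UMIs all 4 libraries lay between 167 and 252 CPM.

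Cd8 cells varied more among libraries near the split. At 10 to 19 Ccl5 UMIs they held 5.11 and 1.81 CPM in sh-NC and 77.0 and 89.0 CPM in sh-B7-H3 (1), over 18 to 45 cells. At 20 to 39 they held 15.0, 22.7, 50.9 and 12.3 CPM, and at 80 or more 65.7, 49.1, 92.1 and 85.0 CPM. In this lineage the bins from 40 UMIs up were higher in both knockdown libraries than in both control libraries.

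**Figure D2:**
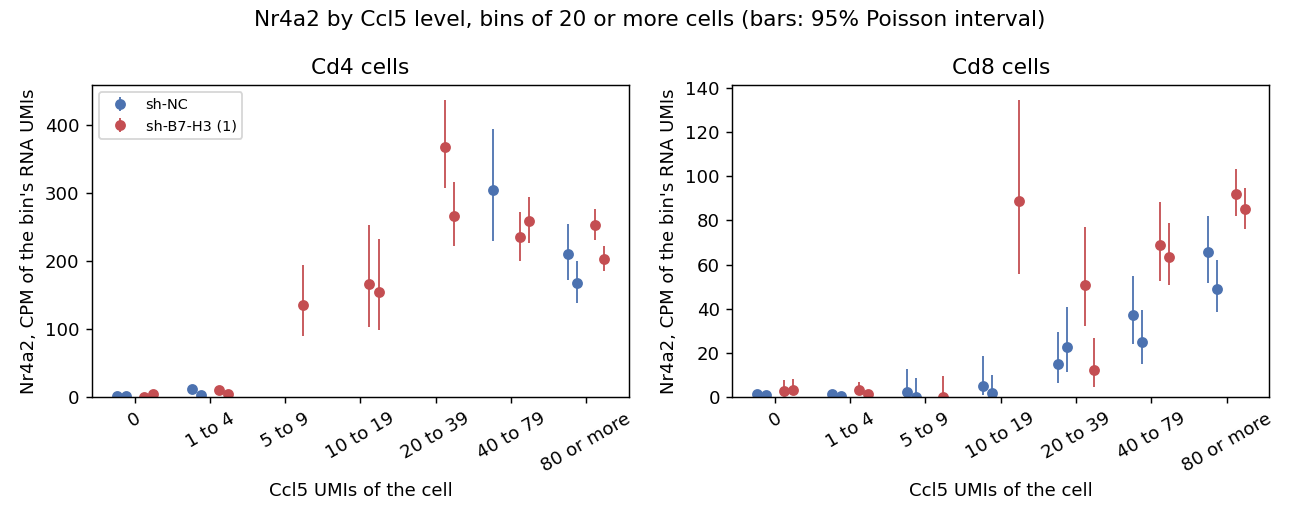
Nr4a2 level (CPM of the bin's RNA UMIs, linear axis from 0) by the Ccl5 UMIs of the cell, for Cd4 cells (left) and Cd8 cells (right), with 1 point per library (blue sh-NC, red sh-B7-H3 (1)), bins of at least 20 cells only and bars for 95% Poisson intervals. Cd4 cells reach 155 and 165 CPM at 10 to 19 Ccl5 UMIs in the 2 knockdown libraries and stay between 167 and 252 CPM in all 4 at 80 or more, and Cd8 cells lie between 49.1 and 92.1 CPM in the last bin.

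At an equal depth of 2000 UMIs a cell, Nr4a2 was seen in 21.0 and 19.2% of Ccl5-high Cd4 cells in sh-NC and in 27.5 and 26.8% in sh-B7-H3 (1) (38.7, 40, 50.5 and 47.1% without thinning, at median depths of 6494 to 7167 UMIs). In Ccl5-low Cd4 cells the share was 0.314, 0.154, 0.893 and 1.84% (0.877, 0.844, 3.46 and 4.62% without thinning), at median depths of 6918.5 to 8140 UMIs. In Ccl5-high Cd8 cells the shares were 5.57 and 5.16% in sh-NC and 10.9 and 9.17% in sh-B7-H3 (1) (9.85, 10.0, 20.9 and 19.4% without thinning). Both lineages thus stood above the Ccl5-low Cd4 cells in every library. The groups did not overlap in either lineage, with means of 20.1 ± 1.30% against 27.1 ± 0.47% (SD, n = 2) in Cd4 cells and 5.37 ± 0.29% against 10.0 ± 1.24% in Cd8 cells. The exact two-sided permutation p was 0.333, the smallest that 2 against 2 libraries allow. At 1000 UMIs a cell the groups overlapped in Cd4 cells, at 15.5 ± 2.87% against 17.1 ± 0.34%, and did not in Cd8 cells, at 3.47 ± 0.31% against 5.95 ± 0.81%. In uncalled droplets, which hold free RNA, Nr4a2 stood at 10.6 and 10.4 CPM in sh-NC and 43.0 and 24.3 CPM in sh-B7-H3 (1), so its level in the low classes of either group was under that of free RNA.

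The knockdown comparison for Nr4a2 depended on the Ccl5 class. In Cd4 cells under 20 Ccl5 UMIs Nr4a2 was higher in sh-B7-H3 (1) by 2.76 ± 0.27 on the log2 scale (edgeR, adjusted p = 1.03e-08), and it was the only member called, where a call needs an adjusted p under 0.05 and at least a doubling or halving. Across all 10492 genes tested in that comparison 2.29% were called. In Cd8 cells under 20 UMIs Nr4a2 was higher by 2.54 ± 0.34 (adjusted p = 2.43e-05) and Nr4a3 by 1.24 ± 0.34 (adjusted p = 0.0246), so 2 of 6 members were called against 1.26% of all genes. Free RNA of Nr4a2 was also higher in the knockdown libraries, as given above, and 12 myeloid markers, all present, summed to 200 to 314 CPM in the Ccl5-low Cd4 cells of sh-NC and 345 to 537 CPM in those of sh-B7-H3 (1). The part of either in these differences was not tested.

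The cells with 5 to 19 Ccl5 UMIs carried much of this difference. In Cd4 cells under 20 they were 0.627 and 0.537% of the class in sh-NC and 6.49 and 9.55% in sh-B7-H3 (1), and they held 10 of 36, 0 of 14, 21 of 40 and 51 of 68 Nr4a2 UMIs. In Cd8 cells under 20 they were 3.32, 4.62, 7.14 and 11.2% of the class and held 3 of 26, 1 of 11, 12 of 22 and 22 of 31 UMIs. Limiting the low class to under 5 Ccl5 UMIs, an alternative added after seeing the data, left 2.05 and 1.27 CPM against 6.25 and 4.15 CPM in Cd4 cells, a log2 fold change of 1.64 ± 0.38 (adjusted p = 0.0056). In Cd8 cells it left 1.32 ± 0.48 (adjusted p = 0.118) for Nr4a2 and 0.69 ± 0.40 (adjusted p = 0.385) for Nr4a3. Neither is a call, so neither Cd8 call held without the cells with 5 to 19 Ccl5 UMIs.

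Among Ccl5-high cells the knockdown differences of Nr4a2 were smaller. In Cd4 cells the 2 groups overlapped and the log2 fold change was 0.20 ± 0.10 (edgeR, adjusted p = 0.353). None of the 5 members tested there was called, against 0.855% of all genes, and Egr3 was too low to be tested. In Cd8 cells Nr4a2 was higher in both knockdown libraries, by 0.94 ± 0.12 (adjusted p = 2.52e-06), which passed the test but not the limit of a doubling. None of the 5 members tested was called there, against 2.13% of all genes, and 1 passed without the fold limit, against 11.3% of all genes. The value crossed the limit without sh-NC replicate 1 (1.10) and without sh-B7-H3 (1) replicate 2 (1.04).

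The difference between the knockdown effects was itself tested. For Nr4a2 the effect was smaller in Ccl5-high than in Ccl5-low cells by 2.58 ± 0.26 on the log2 scale in Cd4 cells (coded as −2.58; edgeR interaction, adjusted p = 1.14e-10) and by 1.62 ± 0.32 in Cd8 cells (−1.62; adjusted p = 9.49e-04). With the low class limited to under 5 Ccl5 UMIs these became −1.44 (adjusted p = 0.0095) and −0.42 (adjusted p = 0.763), so the Cd8 difference was lost. In Ccl5-high cells the effect was larger in Cd8 than in Cd4 cells by 0.74 ± 0.15 (adjusted p = 4.79e-04), under the limit of a doubling (1 of 6 members passed without that limit, against 2.78% of all genes), and in Ccl5-low cells 0.22 smaller, −0.22 ± 0.43 (adjusted p = 0.962). Members called in these 4 differences were 2 of 6 (Nr4a2 and Egr3, Cd4 strata; background 2.09%), 1 of 6 (Cd8 strata; 1.51%), 0 of 6 (lineages, Ccl5 low; 0.219%) and 0 of 6 (lineages, Ccl5 high; 0.878%).

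In Foxp3 cells with low Ccl5 no member was called between the groups, against 1.04% of all genes. Nr4a2 had a log2 fold change of 1.23 ± 0.46 (edgeR, adjusted p = 0.12) and Egr3 of 0.86 ± 0.31 (adjusted p = 0.109). Leaving out sh-B7-H3 (1) replicate 2 gave 2 calls, Nr4a3 and Egr3, against 1.35% of all genes, and leaving out sh-NC replicate 2 gave 1, Nr4a3, against 1.10%. Myeloid marker RNA varied widely in this class, from 219 to 961 CPM summed over 12 genes in sh-NC and 247 to 637 CPM in sh-B7-H3 (1), and its part was not tested.

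**Figure D3:**
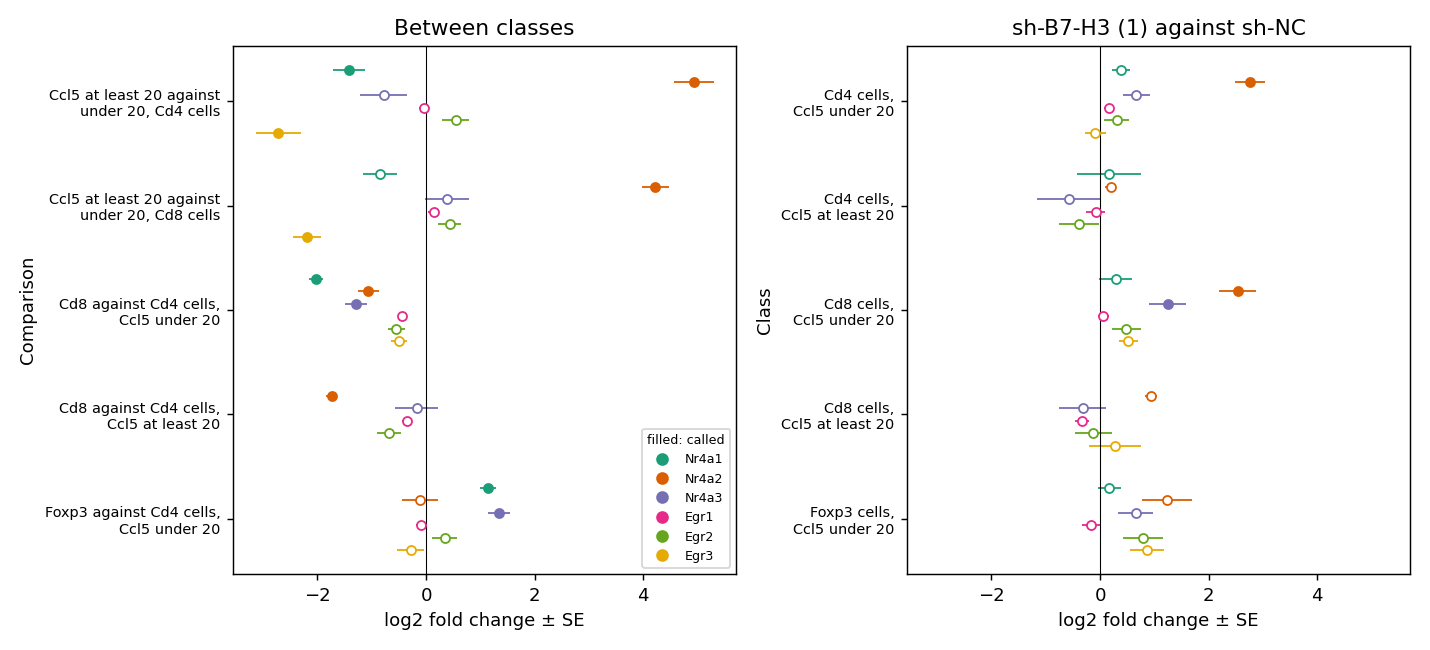
Log2 fold change ± SE of each member (edgeR, 4 libraries) between classes (left) and between sh-B7-H3 (1) and sh-NC within a class (right), with filled points for calls and open points for genes tested but not called. Nr4a2 lies at 4.93 and 4.22 for Ccl5-high against Ccl5-low Cd4 and Cd8 cells and at 2.76 and 2.54 between the groups in the 2 low classes, and Egr3 at −2.72 and −2.19 between the Ccl5 classes.

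Egr3, a zinc finger factor that limits receptor signaling together with Egr2, had the opposite order to Nr4a2. It stood at 14.8 and 20.2 CPM in sh-NC and 10.5 and 20.2 CPM in sh-B7-H3 (1) in Cd4 cells under 20 Ccl5 UMIs. Above 20 it was listed at 0 UMIs in both sh-NC libraries, which allows up to 3.75 and 3.48 CPM (3 counts a library), and at 2 and 26 UMIs (0.678 and 7.18 CPM) in sh-B7-H3 (1). No high library reached the lowest low library. The fitted log2 fold change was −2.72 ± 0.41 (edgeR, adjusted p = 1.69e-04). In Cd8 cells Egr3 fell from 8.56, 11, 15.5 and 11.9 CPM to 4.65, 1.51, 2.89 and 4.10 CPM (log2 fold change −2.19 ± 0.25, adjusted p = 1.71e-05).

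Between the groups Egr3 passed no call in any of the 4 classes where it was tested. As reported, its adjusted p was 0.864 in Ccl5-low Cd4 cells, 0.0768 in Ccl5-low Cd8 cells (0.0333 with replicates as a block, log2 fold change 0.50) and 0.802 in Ccl5-high Cd8 cells. In Ccl5-high Cd4 cells 26 of the 28 UMIs came from sh-B7-H3 (1) replicate 2, where 1.36% of cells held any, and the fitted interaction between Ccl5 classes, 7.28 ± 2.10 (adjusted p = 0.033), is no bound because the control libraries are at 0. It was no longer called when any library was left out. Free RNA held 20.5, 20.0, 17.9 and 12.2 CPM of Egr3, above the Ccl5-high Cd4 cells and both Cd8 classes in all 4 libraries. It was also above the Ccl5-low Cd4 cells in sh-NC replicate 1 and sh-B7-H3 (1) replicate 1. The part of free RNA in the Egr3 values was not tested.

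Nr4a1, the receptor that encodes Nur77, was highest in Foxp3 cells and lowest in Cd8 cells. It stood at 28.1 and 38.7 CPM in sh-NC and 43.2 and 33.8 CPM in sh-B7-H3 (1) in Foxp3 cells with low Ccl5. The matching Cd4 cells held 11.4, 12.5, 13.0 and 16.8 CPM and the Cd8 cells 2.42, 2.96, 3.04 and 3.19 CPM. The 3 classes did not overlap. Foxp3 cells were higher than Cd4 cells by 1.14 ± 0.14 on the log2 scale (edgeR, adjusted p = 4.21e-06), and Cd8 cells lower by 2.02 ± 0.13 (coded as −2.02; adjusted p = 4.85e-09). With mitochondrial UMIs up to 10% the first fell under a doubling (0.96) and was no longer called.

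At 2000 UMIs a cell, Nr4a1 was seen in 4.64, 7.55, 5.26 and 5.18% of these Foxp3 cells and in 1.82, 1.77, 1.12 and 2.01% of Ccl5-low Cd4 cells. Free RNA held 23.0, 24.3, 22.2 and 14.8 CPM of Nr4a1, below the Foxp3 cells of the same library and above the Cd4 cells in 3 of 4 libraries. Nr4a1 was lower in Ccl5-high than in Ccl5-low Cd4 cells, at 2.50, 10.5, 2.71 and 10.5 CPM, from 2, 9, 8 and 38 UMIs. In sh-NC replicate 2 the high and low cells were close, at 10.5 and 12.5 CPM. The log2 fold change, high against low, was −1.41 ± 0.29 (edgeR, adjusted p = 0.00156). In Cd8 cells the same contrast gave −0.85 ± 0.31 (adjusted p = 0.0372; −0.50 and 0.175 without TMM scaling), under a halving. Between sh-B7-H3 (1) and sh-NC it was called in none of the 4 classes where it was tested, with log2 fold changes of 0.16 to 0.38 (adjusted p 0.169 to 0.952). In the small Foxp3 class with high Ccl5 it stood at 58.9, 80.9, 21.4 and 0 CPM, from 5, 7, 3 and 0 UMIs.

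Nr4a3, the third orphan receptor of the family, resembled Nr4a1 across the Ccl5-low classes. Foxp3 cells held 10.4, 23.1, 37.4 and 16.9 CPM, Cd4 cells 5.03, 5.60, 10.5 and 6.51 CPM and Cd8 cells 1.98, 1.27, 4.43 and 3.35 CPM. Free RNA held 10.1, 7.30, 9.31 and 5.21 CPM of Nr4a3, above the Cd8 cells in all 4 libraries and above the Cd4 cells in both sh-NC libraries. The Foxp3 range touched that of Cd4 cells, and within each library Foxp3 cells were higher (log2 fold change 1.34 ± 0.20, edgeR adjusted p = 3.80e-05) and Cd8 cells lower (−1.29 ± 0.20, adjusted p = 8.69e-05). Across the Ccl5 split it did not pass the test in Cd4 cells (−0.78 ± 0.43, adjusted p = 0.153) or Cd8 cells (0.38 ± 0.41, adjusted p = 0.46), although 3 of 20 alternatives in Cd4 cells (−1.06 to −1.51) and 1 of 20 in Cd8 cells (1.02) called it. Its call between the groups in Ccl5-low Cd8 cells was lost without sh-NC replicate 2 and without either sh-B7-H3 (1) library.

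Egr1, the zinc finger factor often used as an early reporter of ERK signaling, was found in every class. Cd4 cells held 53.1, 51.6, 49.3 and 64.2 CPM with low Ccl5 and 83.8, 63.9, 55.6 and 73.2 CPM with high Ccl5. Cd8 cells held 33.0, 38.8, 32.9 and 37.1 CPM and 62.1, 50.5, 38.2 and 47.8 CPM. The CPM of Ccl5-high cells was above that of Ccl5-low cells in 4 of 4 libraries of both lineages. Fitted with TMM scaling, neither lineage passed the test across the split (log2 fold changes −0.034 and 0.14, edgeR adjusted p 0.783 and 0.317), whereas without that scaling, an alternative added after seeing the data, the folds were 0.31 and 0.49 (adjusted p = 0.02 and 0.00144), both under a doubling. TMM sets the median fold of all genes near 0, and without it that median was 0.34 and 0.36, so Egr1 lay just under the median gene in Cd4 cells and above it in Cd8 cells. Cd8 cells were lower than Cd4 cells by 0.44 ± 0.06 below 20 Ccl5 UMIs (adjusted p = 3.29e-05) and by 0.35 ± 0.10 above (adjusted p = 0.0117), both under a halving (coded as −0.44 and −0.35). Free RNA held 70.3, 71.8, 83.1 and 50.4 CPM of Egr1, above both Cd8 classes of the same library in all 4. It was also above the Ccl5-low Cd4 and Foxp3 cells in every library but sh-B7-H3 (1) replicate 2. At 2000 UMIs the share of cells with Egr1 was 4.9 to 11.4% in the 5 larger classes. The part of free RNA in the Egr1 values was not tested.

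Egr2 stood between 3.04 and 20.0 CPM in the 5 larger classes. Free RNA held 7.58, 6.83, 9.31 and 7.82 CPM of Egr2, above the Ccl5-low Cd8 cells of the same library in every case. It was also above the Ccl5-low Cd4 cells in every library but sh-B7-H3 (1) replicate 2. Ccl5-high Cd4 cells held 20.0, 11.6, 8.14 and 13.8 CPM and Ccl5-low Cd4 cells 6.05, 6.41, 6.83 and 8.08 CPM. Each high library was above the low cells of the same library, but the test was not passed (log2 fold change 0.55 ± 0.25, edgeR adjusted p = 0.0862; 0.89 without TMM scaling, adjusted p = 0.011, under a doubling). Foxp3 cells with low Ccl5 held 9.50 and 6.61 CPM in sh-NC and 12.5 and 16.1 CPM in sh-B7-H3 (1) (log2 fold change 0.78 ± 0.37, adjusted p = 0.25). Egr4, the remaining family member, which was named after its values were seen, had 1 UMI in 1 library of each of the 2 Ccl5-low conventional classes and 0 elsewhere.

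Counted over the members, 3 of 6 were called between Ccl5-high and Ccl5-low Cd4 cells (Nr4a2 up, Egr3 and Nr4a1 down), against 21.6% of all genes. In Cd8 cells 2 of 6 were called (Nr4a2 up, Egr3 down), against 17.2% of all genes. Between Cd8 and Cd4 cells with low Ccl5, 3 of 6 were called, all lower in Cd8 cells (Nr4a1, Nr4a3 and Nr4a2), against 5.9% of all genes. All 6 were lower in Cd8 cells and passed the test without the fold limit, against 34.8% of all genes. With high Ccl5, 1 of 4 members tested was called (Nr4a2), against 5.18%. Between Foxp3 and Cd4 cells 2 of 6 were called (Nr4a1 and Nr4a3, both higher in Foxp3 cells), against 10%.

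Across the 20 sums of the 5 larger classes in 4 libraries, Nr4a1 ran with Nr4a3 (Pearson r of log2(CPM + 1) 0.84) and Egr1 with Egr2 (0.83), whereas Nr4a2 ran against Egr3 (−0.78) and showed r of −0.29 with Nr4a1. These sums share libraries and classes, so r is a description. Among the 4668 genes that averaged 20 CPM or more, those most like Nr4a2 were Plek (0.99), a substrate of protein kinase C, the chemokine gene Ccl4 (0.98) and the glucagon-like peptide receptor gene Glp1r (0.98). Most like Nr4a1 were Cd81 (0.93), Cyb5a (0.92) and Tmem64 (0.91), and most like Nr4a3 were Tmem154 (0.88), Cflar (0.87) and Fabp5 (0.86). For Egr1 they were Cbx3 (0.89), Vps35 (0.87) and Dcaf11 (0.86), for Egr2 Ppp2r5c, Helz and Ubr2 (0.88, 0.86 and 0.86), and for Egr3 Mfsd4a, Dgka and Id3 (0.90, 0.88 and 0.87). Dgka encodes a kinase that limits diacylglycerol signaling and Id3 an inhibitor of E proteins.

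Few single cells held UMIs of 2 or more members, a share limited by how often each member is detected. In Ccl5-high Cd4 cells thinned to 2000 UMIs, 4.46 to 5.63% of cells in the 4 libraries held UMIs of 2 or more members. Egr1 was seen in 12, 4.35, 11.1 and 14.5% of those with an Nr4a2 UMI and in 7.45, 11.3, 4.85 and 8.22% of those without, higher in 3 of 4 libraries. In Ccl5-high Cd8 cells Egr1 was seen in 38.9, 10.5, 10.4 and 16.3% of Nr4a2 cells (7 of 18 cells in the first) and in 7.54, 8.02, 5.89 and 4.55% of the others. There the Nr4a2 cells were higher for Egr1 in 4 of 4 libraries. In the same Cd8 cells Egr2 stood at 11.1, 10.5, 0 and 12.5% against 0.656, 0.860, 0.318 and 0.631%. Egr3 stood at 5.56, 5.26, 1.30 and 2.5% against 0, 0, 0.955 and 0.379%, and Nr4a1 at 11.1, 0, 1.30 and 0% against 0, 0.860, 0.318 and 0.505%. In Ccl5-high Cd4 cells Nr4a3 stood at 4, 8.70, 0.855 and 1.45% against 1.06, 1.03, 0 and 0%. These shares rest on few cells, and no test was made.

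Ccl5-high Cd4 cells with an Nr4a2 UMI were also compared with those without, over all genes at 2000 UMIs a cell and with the library as a block, in a comparison added after seeing the data. They numbered 25 and 23 with and 94 and 97 without in sh-NC, and 117 and 138 with and 309 and 377 without in sh-B7-H3 (1). Of 2782 genes tested 11 were called (0.395%), 9 higher and 2 lower in cells with Nr4a2. A second method, DESeq2, called 5 genes, all of them higher, so it called neither of the lower genes. Ccl4, which encodes a chemokine released by activated T cells, stood at 21080, 16522, 10782 and 7355 CPM with and 4750, 4649, 2295 and 2500 CPM without (log2 fold change 1.96 ± 0.07, edgeR adjusted p = 1.42e-32). Every library showed this direction. Its neighbor in function, Ccl3, gave 1.90 ± 0.08 and the pore-forming protein gene Prf1 1.32 ± 0.17, both higher in 4 of 4 libraries. Ifng, the interferon gamma gene, gave 1.10 ± 0.13 and Spp1, which encodes osteopontin, 2.02 ± 0.18, each higher in 3 of 4 libraries. Ifng stood at 920, 370, 855 and 536 CPM with and 319, 428, 285 and 313 CPM without. Spp1 stood at 780, 0, 594 and 572 CPM with and 53.2, 87.6, 189 and 118 CPM without. That spread between libraries is wider than the SEs.

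The other genes higher in cells with Nr4a2 were Tnfrsf9, the costimulatory receptor 4-1BB (1.01), Itgb8 (1.48), Nrgn, a calmodulin-binding protein gene (1.31, in 3 of 4 libraries), and Nrn1 (1.27). Those lower were Ly6a (−1.62 ± 0.29; 80, 152, 21.4 and 14.5 CPM with against 282, 253, 72.8 and 72.9 CPM without) and Adgre5 (−1.11). The genes of this comparison were named after their values were seen. Of the surface and secreted genes listed as receptor-induced, 4 of 9 tested were called higher, of the restraint genes 1 of 16, and none of the members tested (Egr1) or of the other 6 lists. Median depth before thinning was 7005 to 7871 UMIs with and 6029 to 7040 without. Ccl5-high Cd8 cells had 18 and 19 cells with Nr4a2 in the sh-NC libraries and were not tested.

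**Figure D4:**
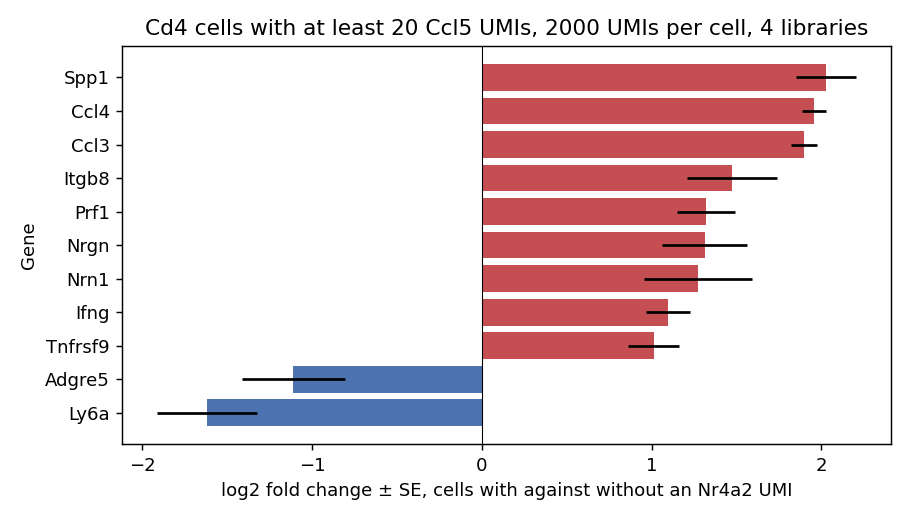
Log2 fold change ± SE (edgeR, library as a block, 4 libraries) of the 11 genes called between Ccl5-high Cd4 cells with and without an Nr4a2 UMI at 2000 UMIs a cell, red for higher and blue for lower. Spp1, Ccl4 and Ccl3 lie at 2.02, 1.96 and 1.90 and Ly6a at −1.62.

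The pathway around the members was followed in 8 lists. These were chosen with earlier results of these data known, so their counts, also beside the share of all genes, are a description. Between the Ccl5 classes 21.6% of all genes were called in Cd4 cells and 17.2% in Cd8 cells, and the counts of this comparison stand beside those shares. Of the genes that restrain the receptor or mark anergy and exhaustion, 11 of 19 tested rose and 1 fell in Cd4 cells, and 10 rose and 1 fell of 19 in Cd8 cells. The largest were Lag3 (5.14 ± 0.54, adjusted p = 9.79e-06) and Havcr2 (4.91 ± 0.46), both inhibitory receptors, in Cd4 cells, and Entpd1, the ectonucleotidase CD39 (5.86 ± 0.29), and Havcr2 (5.81 ± 0.31) in Cd8 cells. Factors induced after receptor engagement rose at 8 of 11 and fell at 1 in both lineages, led by Tox2 (3.88 ± 0.18) and Irf8 (3.19 ± 0.25) in Cd4 cells and Tox2 (4.75 ± 0.39) and Bhlhe40 (4.70 ± 0.21) in Cd8 cells. Median log2 fold changes of these 2 lists were 1.57 and 2.33 in Cd4 cells and 1.03 and 1.83 in Cd8 cells, against 0.00094 and 0.010 over all genes in the 2 lineages.

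Induced surface and secreted genes rose at 6 and fell at 3 of 14 in Cd4 cells and rose at 7 of 13 in Cd8 cells, with the chemokine genes Ccl3 (5.88 ± 0.86) and Ccl4 (5.84 ± 0.99) largest in Cd4 cells and Fasl (5.90 ± 0.35) and Ifng (5.29 ± 0.33) in Cd8 cells. ERK feedback genes rose at 5 and fell at 1 of 9 in Cd4 cells and rose at 4 and fell at 1 of 10 in Cd8 cells. The ERK inhibitor gene Spry2 rose by 3.43 ± 0.77 and 4.87 ± 0.50. Early AP-1 genes, which tissue handling also induces, fell in Cd4 cells at 9 of 19 with none up, and in Cd8 cells 4 fell and 2 rose of 20, with Klf2, a factor of resting T cells, at −4.46 ± 0.16 and −2.59 ± 0.29.

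The 3 remaining lists held 1 to 3 calls each between the Ccl5 classes. Of the EGR partners, Elk3 rose (1.61 ± 0.09) and Elk4 fell (−1.79 ± 0.10) in Cd4 cells, where 2 rose and 1 fell of 7, and Elk3 alone of 7 rose in Cd8 cells (1.10 ± 0.08). Of the 12 calcium and NFAT genes, Nfatc1 rose in both lineages (1.11 ± 0.12 and 1.31 ± 0.07) and Rcan3 fell in Cd4 cells (−1.64 ± 0.20). Of 10 heat shock genes only Hspe1 was called, and it fell in both (−1.08 ± 0.08 and −1.06 ± 0.06). Nab2, the EGR co-repressor that EGR factors themselves induce, was not called in any of the comparisons tested.

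Between the groups, list members are counted beside the share of all genes called in the same comparison. In Ccl5-low Cd4 cells, where that share was 2.29%, 7 of 20 restraint genes rose, led by Lag3 (3.22 ± 0.16) and Havcr2 (3.17 ± 0.32), 4 of 15 induced surface and secreted genes rose and 1 fell, with Ccl4 (4.01 ± 0.21) and Ccl3 (3.68 ± 0.25) the largest, and 4 of 11 activation factors rose, led by Irf8 (1.43 ± 0.21) and Nfil3 (1.27 ± 0.39). Spry2 rose (5.37 ± 0.88) as 1 of 10 ERK feedback genes and Fosl2 (1.08 ± 0.28) as 1 of 19 early genes. No EGR partner, calcium or heat shock gene was called. The effector marker list includes Ccl5, the gene that splits the classes, so its sums here and below partly reflect Ccl5 itself. Effector markers summed to 161 and 190 CPM in sh-NC and 938 CPM in both sh-B7-H3 (1) libraries of this class. Regulatory T cell markers summed to 136 to 143 and 216 to 249 CPM, and CD8 lineage markers to 27.2 to 27.3 and 49.4 to 55.8 CPM. Whether a change within cells or a shift in which cells fall in the class gave these differences was not tested.

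Cd8 cells with low Ccl5, where 1.26% of all genes were called, had 6 of 19 restraint genes up, led by Nrgn (5.55 ± 0.55) and Havcr2 (3.06 ± 0.61), 5 of 14 induced surface and secreted genes up, led by Ccl3 (4.39 ± 0.39) and Ccl4 (3.60 ± 0.26), and 2 of 10 activation factors up, Bhlhe40 (2.01 ± 0.29) and Ikzf2 (1.20 ± 0.17). Early genes fell at 3 of 20, with Fos at −1.5 ± 0.13, Dusp1 at −1.06 ± 0.12 and Jun at −1.05 ± 0.05. Foxp3 cells, where 1.04% of all genes were called, had 3 of 12 induced genes up, Ifng (3.08 ± 0.68) and Ccl3 (2.96 ± 0.26) the largest, and Myc down (−1.20 ± 0.23) among 11 activation factors. The remaining lists held no call in either class. Effector markers, Ccl5 among them, summed to 779 to 822 CPM in sh-NC and 1106 to 1134 CPM in sh-B7-H3 (1) in these Cd8 cells. In the Foxp3 cells they summed to 669 to 782 and 1242 to 1389 CPM. CD8 lineage markers in the Foxp3 cells stood at 21.7 to 31.2 and 59.6 to 68.1 CPM. The part of these markers in the list counts was not tested.

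In Ccl5-high cells, where 0.855% of all genes were called in Cd4 and 2.13% in Cd8 cells, early genes fell with knockdown at 5 of 20 in Cd4 cells, with Fos at −1.88 ± 0.52 and Fosb at −1.87 ± 0.47, and at 3 of 20 in Cd8 cells, with Klf2 at −2.17 ± 0.12 and Fosb at −1.46 ± 0.21. The restraint list had 1 call in each, Nrgn (1.38 ± 0.18 and 1.67 ± 0.23). Induced surface and secreted genes had Xcl1 up (2.43 ± 0.67) and Tnfrsf4 down (−1.23 ± 0.15) of 12 in Cd4 cells, and Cd200 up (1.65 ± 0.26) with 2 down of 13 in Cd8 cells, Cd69 among them. The other lists held none. Effector markers, Ccl5 among them, summed to 21900 to 23558 CPM in sh-NC and 29727 to 30026 CPM in sh-B7-H3 (1) in Ccl5-high Cd8 cells. In Ccl5-high Cd4 cells they summed to 33699 to 34551 and 25382 to 27420 CPM. The 12 myeloid markers summed to 75.5 to 86.3 CPM in sh-NC and 113 to 207 CPM in sh-B7-H3 (1) in Ccl5-high Cd4 cells. In Ccl5-high Cd8 cells they summed to 60.4 to 418 and 159 to 313 CPM. The part of these markers in these values, and in that of Nr4a2 in the same classes, was not tested.

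Between lineages with low Ccl5, where 5.9% of all genes were called, Cd8 cells were lower at 11 of 15 induced surface and secreted genes, Cd40lg (−4.59 ± 0.10) and Tnfrsf4 (−3.70 ± 0.11) the largest, at 7 of 19 restraint genes with 1 higher, at 4 of 11 activation factors and at 2 of 8 ERK feedback genes, with 1 of 12 calcium genes lower and 1 of 20 early genes in each direction. With high Ccl5, where 5.18% of all genes were called, they were lower at 5 of 12 induced genes with 2 higher, at 6 of 20 restraint genes with 1 higher, at 6 of 11 activation factors and at 1 of 8 ERK feedback genes, and higher at 4 of 20 early genes and 1 of 10 heat shock genes. Foxp3 cells, where 10% of all genes were called, were higher than Cd4 cells at 7 of 11 activation factors, led by Ikzf2 (4.22 ± 0.12) and Irf8 (1.99 ± 0.24), at 9 of 19 restraint genes with 1 lower, led by Ctla4 (4.09 ± 0.17) and Tigit (3.17 ± 0.35), and at 3 of 9 ERK feedback genes, led by the ERK phosphatase genes Dusp4 (2.38 ± 0.28) and Dusp5 (1.55 ± 0.10). Induced surface and secreted genes were higher at 5 and lower at 4 of 14 there. Il2ra (4.55 ± 0.16) and Tnfrsf4 (3.69 ± 0.11) were among those higher. Of 10 heat shock genes Hspa1a was lower (−1.28 ± 0.17). Ikzf2, Ctla4 and Il2ra are also regulatory T cell markers and Cd40lg is a CD4 lineage marker, so these genes also mark the lineages compared. The part of lineage identity in these counts was not tested. Irf4, a factor whose level follows receptor strength, was also higher in Foxp3 cells (1.78 ± 0.22) and lower in Cd8 than Cd4 cells (−1.15 ± 0.20 with low and −1.08 ± 0.22 with high Ccl5).

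Cd69, the early activation marker, gave RNA and surface protein in opposite orders between the groups in Ccl5-low Cd4 and Ccl5-high Cd8 cells. Its RNA stood at 239 and 215 CPM in sh-NC and 98.0 and 106 CPM in sh-B7-H3 (1) in Ccl5-low Cd4 cells (log2 fold change −1.12 ± 0.06) and at 171, 192, 82.5 and 77.2 CPM in Ccl5-high Cd8 cells (−1.16 ± 0.08, edgeR adjusted p = 9.35e-11). The CD69 antibody tag stood at 37.9 and 37.1 against 56.4 and 55.6 per 10000 tag UMIs in those Cd4 cells and at 29.0, 25.9, 41.3 and 42.6 in those Cd8 cells. In both classes the RNA was lower and the tag higher in the knockdown libraries, without overlap. In Ccl5-high Cd4 cells the RNA overlapped, at 72.5, 52.3, 49.5 and 52.7 CPM (−0.18 ± 0.17, edgeR adjusted p = 0.70), while the tag stood at 23.0 and 23.3 against 39.9 and 38.7 per 10000. The tag counts are shares of all tag UMIs of the class and were not tested.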

How the data were processed

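Live CD3+ T cells of 2 sh-NC and 2 sh-B7-H3 (1) libraries were measured by 10x 3′ CITE-seq. The authors deposited raw UMI counts per gene or antibody tag and barcode, produced by Cell Ranger, which aligns with STAR, on mm10, in a filtered and an unfiltered table per library. The headers name Cell Ranger 6.1.1 (filtered) and 4 (unfiltered), and the labels name Seurat 4.0.0. The members and gene lists were chosen with earlier results of these data known.

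Cells with 200 to 3000 genes and at most 5% mitochondrial UMIs were kept. Doublets were marked from simulated doublets (2 per cell, 2000 variable genes, 30 components), which removed 16.2 to 23.3% of the cells. Free RNA was read from barcodes with 10 to 100 UMIs. Counts were summed per class and library, and classes under 20 cells in a library were not tested, which left 14 comparisons. They were fitted with edgeR 4.0.16 (R 4.3.3, TMM, low counts filtered, quasi-likelihood, Benjamini-Hochberg over all genes tested), with the library as a block where classes of the same libraries were compared, and tested on simulated data first. Genes were called at an adjusted p under 0.05 with a log2 fold change of 1 or more in either direction. Intervals (95%, Poisson) and limits at 0 (3 counts) cover counting error only. Python 3.11.15, numpy 2.4.6 and scipy 1.17.1 were used for cell shares.

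Named genes were the 6 members, Cd69, Jun, Fos, Nab2, Tox and Irf4, up to 2 called genes with the largest change per list and comparison, and the 3 genes most like each member. Alternatives were DESeq2 1.42.0, other normalization, filters, Ccl5 splits, doublet, gene and mitochondrial limits, lineage rules, blocks, and each library left out. A lower class under 5 Ccl5 UMIs, fits without TMM scaling, the Ccl5 bins and the cells with or without Nr4a2 were added after seeing the data. Replicates are duplicate lanes per the series' design text, while the study's own text also describes independent samples. A set of reference cells and a marker list are not reported here.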

Additional observations from a re-analysis of the deposited data

Results flagged for a closer look

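In 9 results the effect of the knockdown passed an adjusted p of 0.05 for a difference between classes in a test of the difference itself (edgeR interaction, library as a block). For Nr4a2 the log2 difference, Ccl5-high minus Ccl5-low, was −2.58 in Cd4 cells and −1.62 in Cd8 cells, and Cd8 minus Cd4 in Ccl5-high cells it was 0.74. The Cd8 value was called in 16 of 19 alternatives and fell to −0.42 (edgeR adjusted p = 0.763) with the low class limited to under 5 Ccl5 UMIs, −0.23 (adjusted p = 0.865) at a split of 10 and −0.89 (adjusted p = 0.23) at a split of 20 per 10000 UMIs. For Egr3 in Cd4 cells it was 7.28, a fitted value against control libraries at 0 UMIs, with 26 of 28 UMIs in 1 library and no call when any library was left out, so no difference is read from it. For Tox, a factor of exhausted T cells, it was −0.42 in Cd4 cells (adjusted p = 0.00832 in the edgeR fit), where the level stood at 61.9 and 61.5 CPM in sh-NC and 98.7 and 91.8 CPM in sh-B7-H3 (1) in Ccl5-low cells and at 459, 477, 530 and 498 CPM in Ccl5-high cells. For Cd69 it was 0.95 in Cd4 cells (adjusted p = 1.26e-04) and −0.35 in Cd8 cells (adjusted p = 0.0275), and Cd8 minus Cd4 in Ccl5-high cells it was −0.97 (adjusted p = 2.55e-04). For Jun, an AP-1 subunit, it was 0.67 in Cd8 cells (adjusted p = 3.18e-06). The values of Tox, Cd69 and Jun are under a doubling or halving.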

How the results depend on the processing

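Over 14 comparisons and 30 shares of cells, 1516 alternative log2 fold changes of members with an adjusted p were compared with the fit as reported: 1360 kept their direction and their side of the call, 35 became calls, 28 lost the call and 93 turned direction, and all 93 belong to folds that were not called in the fit as reported. Among the turned folds, Egr3 between the groups in Ccl5-high Cd8 cells became a call at −1.24 with no upper gene limit. Nr4a2 stayed called in 20 of 20 alternatives between the Ccl5 classes in Cd4 cells (3.46 to 6.08) and Cd8 cells (3.78 to 5.01) and between the groups in Ccl5-low Cd4 cells (1.64 to 3.48), and in 17 of 19 in Ccl5-low Cd8 cells (1.30 to 3.10), where DESeq2 gave no adjusted p for Nr4a2 or Nr4a3. The cause of the changes below was not tested. Without TMM scaling, an alternative added after seeing the data that keeps the scale of the printed CPM, no member gained or lost a call, but the median fold of all genes moved to 0.34 and 0.36 across the Ccl5 split in Cd4 and Cd8 cells, to −0.17 in both Cd8 against Cd4 comparisons and to 0.26 for Foxp3 against Cd4 cells. The calls in the higher direction moved there from 53.4 to 72.6%, 55.0 to 75.8%, 36.1 to 25.7%, 46.1 to 31.8% and 73.5 to 87.3%, and between the groups in Ccl5-high Cd4 cells from 45.3 to 34.8%.

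Counts of the 6 members called are followed by the share of all genes called in the same fit. With each library left out in turn, members called between the groups were 1 to 2 in Ccl5-low Cd4 cells (1.5 to 2.20%), 1 to 2 in Ccl5-low Cd8 cells (0.875 to 1.09%), 0 to 1 in Ccl5-high Cd8 cells (1.28 to 2.09%) and 0 to 2 in Foxp3 cells (0.805 to 1.35%). For the difference between Ccl5 classes there was 1 in each case in Cd4 cells (0.887 to 2.07%) and there were 1 to 2 in Cd8 cells (1.24 to 1.53%), and for that between lineages with low Ccl5 0 to 1 (0.323 to 0.466%). Genes called between cells with and without Nr4a2 were 7 to 15, and 5 by DESeq2. Without the fold limit, members called were 1 in Ccl5-high Cd8 cells (11.3%), 6 and 3 between lineages with low and high Ccl5 (34.8 and 19%), and 1 for the lineage difference with high Ccl5 (2.78%). Without the low-count filter they were 1 in Ccl5-high Cd4 cells (0.703%) and 2 between lineages with high Ccl5 (3.87%). A split at 10 Ccl5 UMIs gave 0 in Ccl5-low Cd8 cells (0.914%), 1 in Ccl5-high Cd8 cells (3.06%) and 1 for the lineage difference with high Ccl5 (1.43%). A split at 20 per 10000 UMIs gave 1 in Ccl5-low Cd8 cells (0.946%) and 0 for the Cd8 class difference (1.31%; Nr4a2 −0.89). The limit of 5 UMIs gave 0 in Ccl5-low Cd8 cells (0.70%), 1 in Foxp3 cells (1.06%; Egr3) and 0 for the Cd8 class difference (1.35%), and it took the Nr4a2 call between lineages with low Ccl5 (−0.84). No upper gene limit gave 2 in Ccl5-high Cd8 cells (3.32%), 3 for the Cd8 class difference (1.76%) and 1 for the lineage difference with high Ccl5 (1.01%). No doublet removal gave 1 in Foxp3 cells (0.812%) and 2 for the Cd8 class difference (1.70%), removal at the loading rate 1 in Foxp3 cells (0.932%), and mitochondrial UMIs up to 10% 1 between Foxp3 and Cd4 cells (10.4%). The Cd4 class difference fell to 1 under DESeq2, the loading rate, no upper gene limit, 10% mitochondrial UMIs, 20 per 10000, strict lineage and the limit of 5 UMIs (0.892 to 2.13%).

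Across the Ccl5 split Nr4a3 became a call in Cd4 cells at 10% mitochondrial UMIs (−1.06), at a split of 40 (−1.51) and without cells holding other markers (−1.37), and in Cd8 cells at 20 per 10000 (1.02), and Nr4a1 did in Cd8 cells without sh-NC replicate 1 (−1.03) and without the fold limit. Members called across the Ccl5 split ran from 3 to 4 in Cd4 and from 2 to 3 in Cd8 cells. In the fit as reported, 21.6% of all genes were called in Cd4 cells and 17.2% in Cd8 cells. Nr4a2 became a call between Foxp3 and Cd4 cells at the split of 40 (−1.24, adjusted p = 0.0274 in edgeR).

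Directions turned as follows, with the fold as reported in parentheses. Between the groups in Ccl5-low Cd4 cells, Egr1 (0.17) ran from −0.071 to 0.32 with a library left out (turned without sh-B7-H3 (1) replicate 2). Egr2 (0.31) became −0.017 with the limit of 5. Egr3 (−0.085) became 0.045 without cells holding other markers and ran from −0.70 to 0.24 with a library left out (turned without sh-NC replicate 2 and sh-B7-H3 (1) replicate 1). In Ccl5-high Cd4 cells between the groups, Nr4a1 (0.16) became −0.087 with no upper gene limit and −0.060 at 10% mitochondrial UMIs and ran from −0.52 to 1.56 with a library left out (turned without sh-NC replicate 1). Egr1 (−0.084) became 0.063 with no doublet removal, 0.032 at the loading rate and 0.066 with no upper gene limit and ran from −0.32 to 0.11 with a library left out (turned without sh-NC replicate 1 and sh-B7-H3 (1) replicate 1). Egr2 (−0.39) ran from −0.85 to 0.017 with a library left out (turned without sh-NC replicate 1). For the groups in Ccl5-low Cd8 cells, Egr1 (0.055) became −0.063 at the split of 40 and −0.0064 without TMM and ran from −0.074 to 0.16 with a library left out (turned without sh-NC replicate 1 and sh-B7-H3 (1) replicate 2). Egr2 (0.49) ran from −0.22 to 0.80 with a library left out (turned without sh-B7-H3 (1) replicate 2). For those in Ccl5-high Cd8 cells, Nr4a3 (−0.32) became 0.098 at the split of 10 and 0.061 at 20 per 10000 and ran from −0.94 to 0.42 with a library left out (turned without sh-NC replicate 2 and sh-B7-H3 (1) replicate 2). Egr2 (−0.13) ran from −0.80 to 0.27 with a library left out (turned without sh-NC replicate 1 and sh-B7-H3 (1) replicate 1). Egr3 (0.28) became −1.24, a call, with no upper gene limit and −0.76 at the split of 10 and ran from −0.36 to 1.26 with a library left out (turned without sh-NC replicate 2 and sh-B7-H3 (1) replicate 2). In Foxp3 cells between the groups, Nr4a1 (0.17) became −0.0021 at the split of 10 and −0.044 at 20 per 10000 and ran from −0.045 to 0.41 with a library left out (turned without sh-NC replicate 1). Egr1 (−0.16) became 0.081 with the limit of 5 and ran from −0.43 to 0.065 with a library left out (turned without sh-B7-H3 (1) replicate 1). Across the Ccl5 split in Cd4 cells, Egr1 (−0.034) became 0.31 without TMM and ran from −0.12 to 0.0069 with a library left out (turned without sh-B7-H3 (1) replicate 1 and sh-B7-H3 (1) replicate 2). Across the split in Cd8 cells, Nr4a1 (−0.85) became 0.0029 with no upper gene limit. Nr4a3 (0.38) ran from −0.24 to 0.79 with a library left out (turned without sh-NC replicate 2). Egr1 (0.14) ran from −0.030 to 0.20 with a library left out (turned without sh-NC replicate 1). Between Ccl5-high Cd8 and Cd4 cells, Nr4a3 (−0.17) became 0.018 with no doublet removal, 0.0017 at the loading rate, 0.11 with no upper gene limit, 0.14 at the split of 10, 0.57 at the split of 40, 0.17 at 20 per 10000 and 0.49 without cells holding other markers and ran from −0.84 to 0.53 with a library left out (turned without sh-B7-H3 (1) replicate 2). Between Foxp3 and Cd4 cells, Nr4a2 (−0.12) became 0.042 by DESeq2, 0.29 at the split of 10, 0.0095 at 20 per 10000, 0.054 with strict lineage, 0.12 without cells holding other markers, 0.63 with the limit of 5 and 0.18 without TMM and ran from −0.46 to 0.17 with a library left out (turned without sh-B7-H3 (1) replicate 1 and sh-B7-H3 (1) replicate 2). Egr1 (−0.087) became 0.074 with the limit of 5 and 0.19 without TMM. Egr2 (0.34) became −0.28 with strict lineage. For the difference between Cd4 classes, Nr4a1 (−0.20) ran from −1.33 to 1.14 with a library left out (turned without sh-NC replicate 2 and sh-B7-H3 (1) replicate 1). Egr1 (−0.24) became 0.056 with no doublet removal. For that between Cd8 classes, Nr4a1 (−0.40) became 0.20 with no doublet removal and 0.033 at the split of 40 and ran from −0.86 to 0.091 with a library left out (turned without sh-B7-H3 (1) replicate 2). Egr3 (−0.22) ran from −1.07 to 0.92 with a library left out (turned without sh-NC replicate 1 and sh-B7-H3 (1) replicate 1). For the lineage difference with low Ccl5, Nr4a1 (−0.10) became 0.18 at 10% mitochondrial UMIs and ran from −0.21 to 0.098 with a library left out (turned without sh-B7-H3 (1) replicate 2). Nr4a2 (−0.22) became 0.093 at the loading rate, 0.13 with no upper gene limit, 0.37 at 10% mitochondrial UMIs and 0.19 with strict lineage and ran from −0.43 to 0.10 with a library left out (turned without sh-B7-H3 (1) replicate 2). Nr4a3 (0.61) became −0.066 at the split of 10, −0.13 at 20 per 10000 and −0.029 with the limit of 5. Egr1 (−0.13) became 0.0083 with no doublet removal and ran from −0.28 to 0.014 with a library left out (turned without sh-NC replicate 2 and sh-B7-H3 (1) replicate 2). Egr2 (0.16) became −0.23 at 10% mitochondrial UMIs, −0.32 at the split of 40 and −0.16 with strict lineage and ran from −0.37 to 0.40 with a library left out (turned without sh-B7-H3 (1) replicate 2). For that with high Ccl5, Nr4a1 (−0.23) became 0.28 with no doublet removal, 0.0031 at the loading rate, 0.28 at 10% mitochondrial UMIs and 0.90 at the split of 40 and ran from −1.87 to 1.47 with a library left out (turned without sh-NC replicate 1 and sh-B7-H3 (1) replicate 2). Nr4a3 (0.29) ran from −0.95 to 2.21 with a library left out (turned without sh-B7-H3 (1) replicate 1). Egr2 (0.24) became −0.030 with no upper gene limit.

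Genes called between the groups were 240, 75, 133, 204 and 88 (Ccl5-low and Ccl5-high Cd4, Ccl5-low and Ccl5-high Cd8, Foxp3) and 131, 7, 18, 56 and 16 by DESeq2. Replicate numbers did not pair the samples (correlation of same-numbered deviations −0.027 to 0.060). With the replicate block Nr4a2 in Ccl5-low Cd4 cells was 2.78 (edgeR adjusted p = 1.31e-09), and the block changed no call of a member.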

Other observations

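Surface protein was read from the antibody tags and was not tested. In Ccl5-high Cd4 cells the CD279 tag (PD-1) stood at 100, 111.6, 97.9 and 97.3 per 10000 tag UMIs in the 2 sh-NC and 2 sh-B7-H3 (1) libraries, and in Ccl5-low Cd4 cells at 22.7 and 21.8 against 41.3 and 47.6. The CD39 tag in Ccl5-high Cd8 cells was 718, 570, 631 and 609 per 10000 in cells with an Nr4a2 UMI and 465, 491, 520 and 516 in cells without, higher in 4 of 4 libraries. In Ccl5-high Cd4 cells it was 1003, 1019, 913 and 785 with and 833, 906, 825 and 813 without, higher in 3 of 4.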
